A study of Mus musculus with 18 samples.

Results

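The genes described here are 10 members and close partners of the transforming growth factor beta (TGF-beta) superfamily in the mouse. They comprise the ligand genes Tgfb1, Tgfb2, Tgfb3, Inhba, Gdf15, Gdf3 and Bmp2, the receptor genes Tgfbr1 and Tgfbr2, and Tgfbi, a matrix gene named for its induction by TGF-beta. They were chosen by symbol from the 26149 genes that held a row in both count tables, each represented by its most abundant transcript. All 10 passed the filter on low counts in both tables.

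RNA was sequenced in 18 libraries. Bone marrow-derived macrophages (BMDM) came from C57BL/6J mice (WT) or from mice with the T166A form of PPARg, a lipid-sensing nuclear receptor in which alanine replaces a threonine. They were grown with 50 ng/ml M-CSF, a macrophage growth factor, for 7 days (n = 3 per genotype; replicates 1 and 2 in the batch labelled B1, replicate 3 in B2). The skin libraries came from cells that anti-F4/80 beads held from enzyme-digested dorsal skin 6 days after injury, in WT and T166A mice (n = 6 per genotype, no batch named). No group was without M-CSF or without injury. The labels give no age or sex, do not say whether animals were pooled, and name no promoter or Cre, and counts per transcript cannot check a point mutation. No label says that libraries of a group came from separate animals, so p-values measure the spread between these libraries.

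Ligands of this superfamily act as dimers that bring together type I and type II receptor kinases, which phosphorylate SMAD proteins. TGF-beta1, TGF-beta2 and TGF-beta3 are secreted in a latent complex, signal through the receptors encoded by Tgfbr1 and Tgfbr2, and in healing skin are known for regulating matrix production and inflammation. Activin A, the dimer encoded by Inhba, and the bone morphogenetic proteins (BMPs) use other receptors of the same family, and GDF15 acts through GFRAL.

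RefSeq promoter windows (GRCm38.p6) were matched for 7 of the 10 genes, in 9 windows. The 250 bases upstream of the start are shown, 5′ to 3′ on the gene's strand, for the 2 ligand genes whose T166A libraries all lay below WT in skin (Tgfb1 and Gdf15) and for the 2 that rose there (Inhba and Tgfb2). They lie at chr7:25686752-25687001 (+ strand) for Tgfb1, chr8:70632457-70632706 (- strand) for the first of 2 Gdf15 windows, chr13:16011601-16011850 (+ strand) for Inhba and chr1:186705990-186706239 (- strand) for Tgfb2. The Inhba and Tgfb2 windows lie inside their genes' annotated spans, upstream of an internal transcript start. Capitals mark matches on either strand to the GC box motif (GGGCGG), the core promoter motif of the TATA box (TATAAA), a SMAD-binding element (CAGACA) or a nuclear receptor core site (AGGTCA).
Tgfb1: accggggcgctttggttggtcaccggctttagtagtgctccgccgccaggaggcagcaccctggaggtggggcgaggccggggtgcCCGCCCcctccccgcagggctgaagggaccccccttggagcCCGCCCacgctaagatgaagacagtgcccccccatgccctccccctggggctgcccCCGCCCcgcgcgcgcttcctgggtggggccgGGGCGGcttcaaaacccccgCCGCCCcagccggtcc
Gdf15: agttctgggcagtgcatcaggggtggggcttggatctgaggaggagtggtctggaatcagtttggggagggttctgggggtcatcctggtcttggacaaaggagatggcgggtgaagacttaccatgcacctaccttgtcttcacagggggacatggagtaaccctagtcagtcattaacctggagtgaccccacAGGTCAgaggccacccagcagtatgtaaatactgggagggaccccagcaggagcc
Inhba: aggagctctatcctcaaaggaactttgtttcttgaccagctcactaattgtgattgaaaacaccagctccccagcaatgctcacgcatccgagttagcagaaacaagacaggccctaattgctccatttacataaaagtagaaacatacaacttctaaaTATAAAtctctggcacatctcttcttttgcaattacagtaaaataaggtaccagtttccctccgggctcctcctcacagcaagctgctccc
Tgfb2: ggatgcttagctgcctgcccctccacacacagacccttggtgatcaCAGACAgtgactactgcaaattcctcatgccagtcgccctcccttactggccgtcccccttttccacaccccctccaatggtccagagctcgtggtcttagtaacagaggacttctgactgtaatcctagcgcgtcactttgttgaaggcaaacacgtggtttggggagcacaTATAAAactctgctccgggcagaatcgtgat
The Tgfb1 window held 5 GC boxes and no TATA box. The Inhba and Tgfb2 windows each held 1 TATA box and no GC box, and neither Gdf15 window held either. The Tgfb2 window also held 1 CAGACA and the first Gdf15 window 1 AGGTCA. The second Gdf15 window and that of Tgfbr2, which also fell in skin, held none of the motifs searched. Of 32851 windows of this length, 32.7% held GGGCGG, 12.4% TATAAA, 17.1% CAGACA and 14% AGGTCA. Neither the PPAR direct repeat, AGGTCA with its copy after 1 further base (0.0335% of windows), nor TGANTCA, the AP-1 site (6.75%), was found in the 9 windows of these genes. The 6 motifs were chosen after matches of a broader set had been seen, and a match is only a description of the letters.

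Levels were compared between genes as counts per 1000000 gene counts (CPM) per kilobase of transcript, with library sizes scaled by TMM over all 18 libraries. In WT skin, Inhba was the most abundant of the 10 at 344 ± 23.9 CPM per kb (SD, n = 6). Tgfb1 followed at 238 ± 21.2, Gdf15 at 200 ± 28.2 and Tgfbi at 166.3 ± 8.83. The receptor genes Tgfbr2 (28.3 ± 2.95) and Tgfbr1 (28.1 ± 1.95) lay lower, above Gdf3 at 8.69 ± 2.27, Bmp2 at 6.97 ± 0.854, Tgfb2 at 4.40 ± 0.503 and Tgfb3 at 4.02 ± 0.461. Libraries of neighbours in this order overlapped for Tgfb1 and Gdf15, Gdf15 and Tgfbi, Tgfbr2 and Tgfbr1, Gdf3 and Bmp2, and Tgfb2 and Tgfb3. Lengths are of the longest isoform listed, and the level and order of the receptor genes depend on this. With the shortest isoform Tgfbr1 stood at 94.5 and Tgfbr2 at 65.9 CPM per kb, both still between Tgfbi and Gdf3.

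WT BMDM had another order. Tgfb1 led at 218 ± 22.9 CPM per kb (SD, n = 3), followed by Tgfbi at 105 ± 19.4, Tgfbr2 at 23.5 ± 3.79, Gdf3 at 17.4 ± 1.83, Tgfbr1 at 9.42 ± 0.717 and Gdf15 at 7.63 ± 0.864. Inhba (2.62 ± 3.89) and Bmp2 (1.23 ± 0.565) were low, and Tgfb3 (0.171 ± 0.127) and Tgfb2 (0.0290 ± 0.0292) were near 0. Inhba and Gdf15, among the 4 highest of the genes in skin, were thus far down the order in BMDM. With the shortest isoform Tgfbr1 stood at 31.7 CPM per kb in WT BMDM, above Gdf3.

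**Figure D1:**
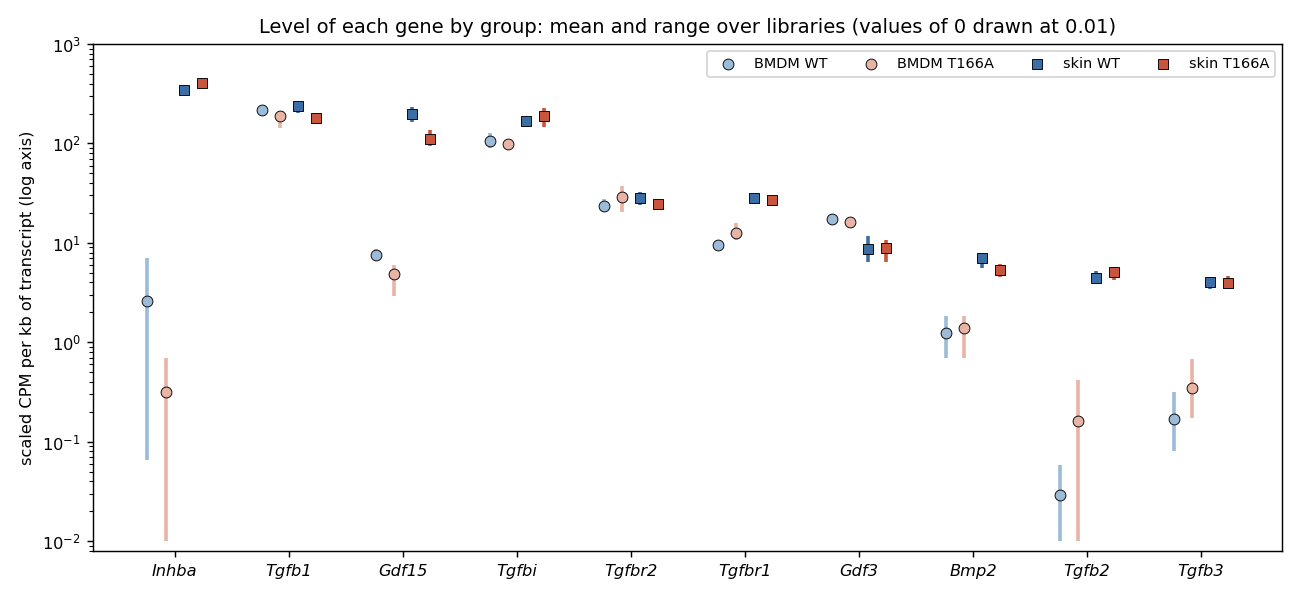
Level of each of the 10 genes in the 4 groups, in TMM-scaled CPM per kb of transcript on a log axis; symbols are group means and lines run from the lowest to the highest library (values of 0 are drawn at 0.01). Inhba lies at 344 CPM per kb in WT skin and 2.62 in WT BMDM, while both BMDM symbols of Gdf3 lie above both of its skin symbols.

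Between WT skin and WT BMDM, 7 of the 10 genes were higher in skin and 1 was lower (edgeR, adjusted p under 0.05). The fit over all 18 libraries held a batch term within BMDM, so these differences are against BMDM at the level of batch B1. They need not equal the differences between the means of all libraries. Of all genes 81.7% were called, 45.9% higher and 35.8% lower. Inhba, the activin A subunit gene, was 119-fold higher in skin (log2 difference 6.89, SE 0.95, edgeR adjusted p = 1.17e-05). The size of that difference rests on WT BMDM libraries of 446, 4 and 40 counts, and it was 11.73 without WT replicate 1 and 6.11 without WT replicate 2. Gdf15, a stress-responsive cytokine gene, was 23.2-fold higher (4.54, SE 0.22, edgeR adjusted p = 9.21e-13). Tgfb3 (log2 difference 4.72), Bmp2 (2.19), Tgfbr1 (1.55) and Tgfbi (0.75) were also higher. The Tgfb3 value rests on 44, 16 and 10 counts in WT BMDM and ran from 4.21 to 5.99 with a BMDM library left out. Tgfb2 had a fitted log2 difference of 9.0, with 6, 0 and 11 counts in WT BMDM replicates 1 to 3, so its size is poorly set. Gdf3, a ligand of the activin and nodal type, was the gene that was lower, 2.07-fold (log2 difference -1.05, SE 0.18, edgeR adjusted p = 2.82e-05). Tgfb1 (-0.00, SE 0.09, edgeR adjusted p = 0.992) and Tgfbr2 (0.12, SE 0.12, edgeR adjusted p = 0.352) were not called. Means over all 3 WT BMDM libraries were 473 CPM for Tgfb1 and 190 CPM for Tgfbr2, scaled over all 18 libraries. In WT skin they were 518 and 229 CPM. The median of all genes was 0.30 with TMM and 0.50 with RLE size factors, under which Tgfb1 stood at 0.20 (edgeR adjusted p = 0.0509) and Tgfbr2 passed the test at 0.33 (edgeR adjusted p = 0.0172). DESeq2 called both higher in skin (Tgfb1 0.20, adjusted p = 0.0395; Tgfbr2 0.33, adjusted p = 0.0107). Between T166A libraries Tgfbr2 passed the test in the other direction, lower in skin (-0.35, edgeR adjusted p = 0.00657). Source, experiment and culture cannot be told apart here. The fibroblast markers summed to 7715 to 11853 CPM in WT skin and to 4.43 to 50.3 CPM in WT BMDM, and their part in these differences was not tested. In bulk libraries, fewer cells of a type and less RNA per cell cannot be told apart.

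In the skin wound fraction, 6 of the 10 genes differed between genotypes. Tgfb1, Gdf15, Bmp2 and Tgfbr2 fell in T166A, and Inhba and Tgfb2 rose. Of all 15473 genes tested in skin, 25.9% were called (12.7% higher, 13.2% lower). The median log2 difference of the 10 genes was -0.05, beside 0.01 over all genes tested.

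Tgfb1 encodes TGF-beta1 (chromosome 7, 25687002 to 25705077, GRCm38; Entrez gene 21803). Its level in WT skin ran from a lowest library of 443 through a median of 538 to 569 CPM, and in T166A from 380 through 397 to 442 CPM. The lowest WT library, replicate 2, and the highest T166A library, replicate 5, nearly met, but the groups did not overlap. The mean fell from 525.7 ± 47.0 to 402 ± 23.1 CPM (SD, n = 6 each), 1.31-fold (log2 difference -0.39, SE 0.06, edgeR adjusted p = 3.5e-05).

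Gdf15 (chromosome 8, 70629393 to 70632470; Entrez gene 23886) showed the largest difference of the 10. WT libraries lay at 260, 322 and 363 CPM (lowest, median, highest) and T166A libraries at 147, 163 and 212. Every T166A library was below every WT library, as for Tgfb1. Among all genes tested, 6.63% had every T166A library below WT. Its mean fell from 313 ± 44.0 to 174 ± 30.2 CPM, 1.80-fold (log2 difference -0.85, SE 0.12, edgeR adjusted p = 0.000329).

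Bmp2 (chromosome 2, 133552159 to 133562896; Entrez gene 12156), a bone morphogenetic protein gene, was less abundant. WT libraries lay at 20.3, 25.3 and 28.3 CPM (lowest, median, highest) and T166A libraries at 16.4, 19.1 and 22.0. Only WT replicate 1 lay within the T166A range. The mean fell from 25.2 ± 3.07 to 19.1 ± 1.87 CPM (log2 difference -0.40, SE 0.09, edgeR adjusted p = 0.00125).

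Inhba (chromosome 13, 16004256 to 16031609; Entrez gene 16323) moved the other way. WT libraries lay at 498, 524 and 605 CPM (lowest, median, highest) and T166A libraries at 574, 636 and 658. The groups overlapped through WT replicate 2, the highest WT library, and T166A replicate 5, the lowest of its group. The mean rose from 533 ± 37.3 to 629 ± 29.1 CPM, 1.18-fold (log2 difference 0.24, SE 0.05, edgeR adjusted p = 0.00159).

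Tgfb2 (chromosome 1, 186622787 to 186709697; Entrez gene 21808) stood at the edge of the threshold. Its libraries lay at 20.7, 21.8 and 27.0 CPM in WT and at 22.1, 27.8 and 29.6 CPM in T166A (lowest, median, highest), and the groups overlapped. The log2 difference was 0.23 (SE 0.09, edgeR adjusted p = 0.0488). The call was lost with RLE size factors (edgeR adjusted p = 0.0534), with DESeq2 (adjusted p = 0.0512), and when any of 8 of the 12 libraries was left out (edgeR adjusted p up to 0.114).

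Gdf3 and Tgfb3 showed no difference that passed the test. Gdf3 (chromosome 6, 122605403 to 122610087; Entrez gene 14562) lay at 13.7, 17.6 and 25.6 CPM in WT (lowest, median, highest) and at 13.8, 19.4 and 23.2 CPM in T166A. Both genotypes covered nearly the same range, with means of 18.8 ± 4.92 and 19.0 ± 3.09 CPM. The log2 difference was 0.02, with a 95% interval of -0.34 to 0.38 (edgeR adjusted p = 0.953). Tgfb3 (chromosome 12, 86056743 to 86079041; Entrez gene 21809) was the lowest of the ligand genes, from 11.9 to 15.8 CPM in WT and from 12.3 to 15.9 CPM in T166A. Its log2 difference was -0.03, with a 95% interval of -0.22 to 0.15 (edgeR adjusted p = 0.823).

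**Figure D2:**
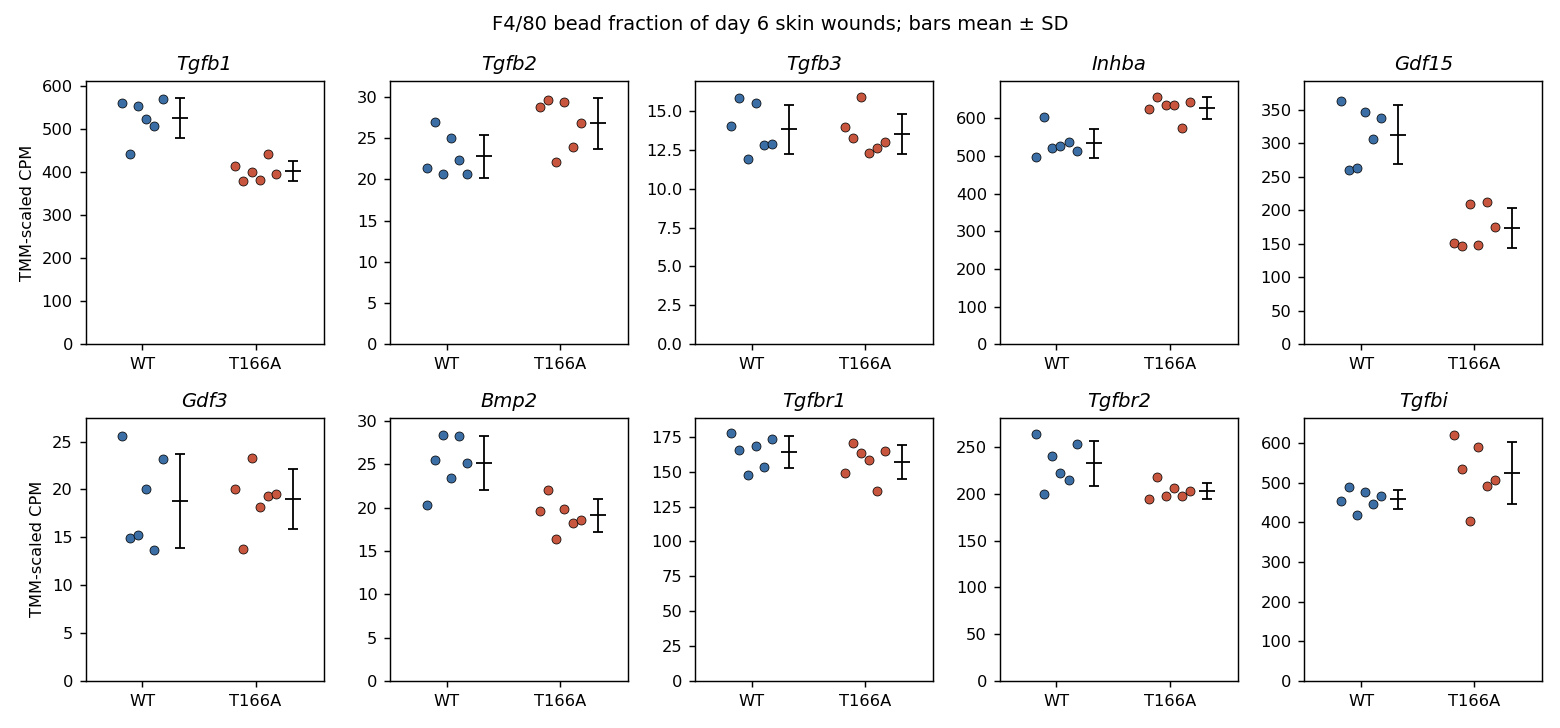
Level of each gene in the skin wound libraries, in TMM-scaled CPM with axes from 0; points are libraries (6 WT, 6 T166A) and bars are mean ± SD. The T166A points lie below all WT points for Tgfb1 and Gdf15, and the groups share their range for Gdf3 and Tgfb3.

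Of the receptor genes, Tgfbr2 fell and Tgfbr1 did not pass the test. Tgfbr2 encodes the type II receptor, which binds the ligand (chromosome 9, 116087695 to 116175363; Entrez gene 21813). WT libraries lay at 200, 231 and 265 CPM (lowest, median, highest) and T166A libraries at 194, 201 and 218, with overlap. The log2 difference was -0.20 (SE 0.06, edgeR adjusted p = 0.0173), and the call was lost without WT replicate 1 (edgeR adjusted p = 0.0589) or WT replicate 6 (edgeR adjusted p = 0.0567), the 2 highest libraries. Tgfbr1 encodes the type I receptor kinase that phosphorylates SMAD2 and SMAD3 (chromosome 4, 47353222 to 47414926; Entrez gene 21812). It lay at 148 to 178 CPM in WT and 136 to 170 CPM in T166A (log2 difference -0.07, 95% interval -0.19 to 0.05, edgeR adjusted p = 0.442).

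Tgfbi encodes a secreted matrix protein (chromosome 13, 56609586 to 56639359; Entrez gene 21810). Its WT libraries lay close together at 419, 460 and 488 CPM (lowest, median, highest), and its T166A libraries spread over 403, 520 and 621 CPM. All T166A libraries except replicate 3 were above the WT maximum. The log2 difference of 0.19 (SE 0.08) did not pass the test (edgeR adjusted p = 0.0860), and it did without T166A replicate 3 (0.26, edgeR adjusted p = 0.00289). T166A replicate 3 was also the lowest of its group for Tgfb2 and Bmp2 and the highest for Gdf3 and Tgfb3. In that library the fibroblast markers summed to 6533 CPM, the lowest of the 12, against 9034 to 11919 CPM in the other T166A libraries. With fibroblast and keratinocyte scores as covariates Tgfbi passed the test (log2 difference 0.29, edgeR adjusted p = 3.57e-06). It was not called with the macrophage score. Over all alternative runs in skin its log2 difference ran from 0.04 to 0.75, with an adjusted p of up to 0.779 (edgeR, DESeq2 or limma-voom). The part of fibroblast RNA in the Tgfbi difference was not tested.

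**Figure D3:**
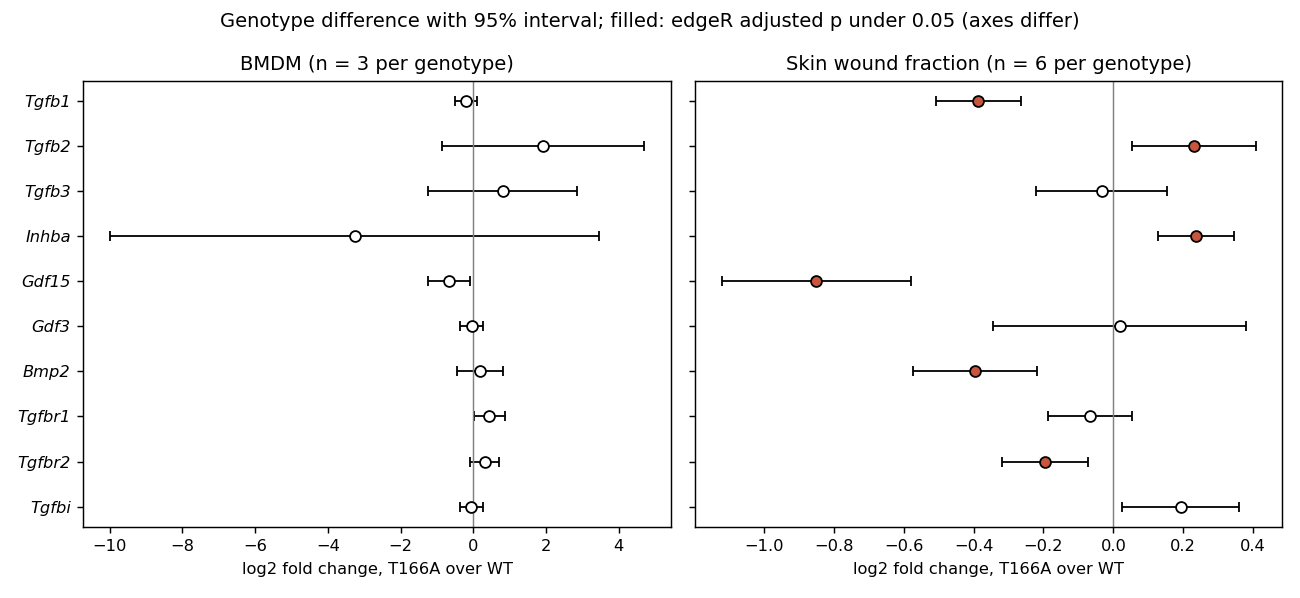
Log2 fold change of T166A over WT for each gene with its 95% interval, in BMDM (left, n = 3 per genotype) and in the skin wound fraction (right, n = 6 per genotype), on different axes; filled points have an edgeR adjusted p under 0.05. The 6 filled points are all in skin, and the BMDM interval of Inhba runs from -9.99 to 3.45.

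The skin fraction held RNA of several cell types, and their markers differed between genotypes beside these genes. Of the 10 macrophage markers, 7 were lower and 0 higher in T166A, with a median log2 difference of -0.32. Their summed level was 14663 to 17940 CPM in WT and 12538 to 14477 CPM in T166A, without overlap. Of 10 endothelial markers 6 were higher, with sums of 1346 to 1880 CPM in WT and 1747 to 2545 CPM in T166A. Of 9 adipocyte markers tested 8 were higher and 1, Aqp7, was lower, with sums of 20.2 to 40.8 and 88.5 to 146 CPM. None of the 10 fibroblast markers was called at adjusted p under 0.05 by edgeR (1 at an unadjusted p under 0.05, and 1 lower by each of DESeq2 and limma-voom), with sums of 7715 to 11853 and 6533 to 11919 CPM. All 10 had a log2 difference below 0, with a median of -0.16. Of 10 skeletal muscle markers 9 were lower, with a median of -1.30 and sums of 63.1 to 93.5 CPM in WT and 28.3 to 39.0 CPM in T166A. The sums of the T and NK cell list did not overlap either (11.3 to 18.3 and 6.60 to 9.28 CPM, with 1 marker of 2 tested called). Its most abundant marker in skin was Cd28. In WT BMDM Cd28 stood at a mean of 33.2 CPM, beside sums of 32.8 to 40.6 CPM for the whole list. The sums of the platelet list (188 to 258 and 272 to 331 CPM, with 1 marker of 7 called, Itgb3) also did not overlap. Those of the keratinocyte, neutrophil, dendritic and mast cell lists overlapped. Only Gp6, of the platelet list, was at 0 in all skin libraries of a genotype, and it was so in both.

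The calls of the 10 genes depended on which marker score entered the fit. Each score was the mean log2 level of its list, centred over the libraries. The summed macrophage, adipocyte and platelet markers did not overlap between genotypes, and the overlap of the scores themselves was not counted. Where a score differs as its sum does, the fit can hardly tell score from genotype. With the macrophage score as a covariate, 2 genes were called in place of 6, and 844 of all 15473 genes in place of 4011. Tgfb1 then stood at -0.16 (edgeR adjusted p = 0.391), Gdf15 at -0.42 (edgeR adjusted p = 0.249), Inhba at 0.07 (edgeR adjusted p = 0.747) and Tgfbr2 at -0.01 (edgeR adjusted p = 0.989) on the log2 scale. Bmp2 kept its call at -0.69 (edgeR adjusted p = 0.00444), and Gdf3 passed the test at 0.82 (edgeR adjusted p = 0.00408), which it did in no other alternative run. With the endothelial score, Tgfb1 (-0.37), Gdf15 (-0.88) and Bmp2 (-0.51) kept their calls, Tgfbi rose (0.44), and Inhba had an edgeR adjusted p of 0.0758. With the adipocyte score, Tgfb1 (-0.75) and Gdf15 (-1.58) stayed lower, Inhba (0.51), Tgfb2 (0.86) and Tgfbi (0.75) were higher, and Bmp2 lost its call (edgeR adjusted p = 0.609).

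The 10 genes were also set against the mean log2 level of the macrophage list in the same library. Gdf15 was then lower by 0.58 in T166A and Inhba higher by 0.51. In both cases the groups did not overlap, and the share of all genes without overlap on this scale was not counted. The list itself was lower in T166A (median log2 difference -0.32), so a gene of equal level in both genotypes would lie above 0 here. On this scale Tgfb1 differed by -0.11, Tgfbr2 by 0.08, Bmp2 by -0.12, Tgfbr1 by 0.21, Tgfb3 by 0.24, Gdf3 by 0.31, Tgfbi by 0.45 and Tgfb2 by 0.50, all with overlap. For Bmp2 this is smaller than its difference without any marker score, while the fit with the score as a covariate gave a larger one. These values carry no test.

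In BMDM none of the 10 genes was called between genotypes by edgeR, beside 0.0685% of the 13139 genes tested (9 genes). At an unadjusted p under 0.05 edgeR marked 2 of the 10, and 12.8% of all genes. DESeq2 and limma-voom called 0 of the 10. The fit has 3 residual degrees of freedom, and the biological coefficient of variation was 0.279, against 0.133 in skin.

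The 2 genes were Gdf15 and Tgfbr1, and for both the groups did not overlap, as for 13.6% of all genes tested. Gdf15 was at 12.7, 10.3 and 10.9 CPM in WT replicates 1 to 3 and at 8.81, 9.37 and 4.27 CPM in T166A. Its log2 difference was -0.67 (SE 0.25, unadjusted p = 0.0274, edgeR adjusted p = 0.334). Batch B1 gave -0.33 and the single pair of batch B2 gave -1.34. Tgfbr1 was at 48.0, 51.8 and 55.9 CPM in WT and at 62.0, 92.2 and 58.1 CPM in T166A, where replicate 2 stood apart. The log2 difference was 0.44 (SE 0.19, unadjusted p = 0.0459, edgeR adjusted p = 0.379), with 0.60 in B1 and 0.06 in B2.

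The other abundant genes overlapped between genotypes in BMDM. Tgfb1 was at 496, 460 and 402 CPM in WT and 457, 456 and 290 CPM in T166A, with the lowest value of each genotype in batch B2 (log2 difference -0.20, 95% interval -0.50 to 0.09). Gdf3 was at 32.8, 39.8 and 33.5 CPM in WT and 35.0, 37.9 and 29.8 CPM in T166A. These values are closely matched (log2 difference -0.05, 95% interval -0.37 to 0.27, edgeR adjusted p = 0.903). Tgfbr2 was at 215, 167 and 163 CPM in WT and 304, 235 and 157 CPM in T166A (log2 difference 0.31, SE 0.17, edgeR adjusted p = 0.488). Tgfbi was at 256, 233 and 329 CPM in WT and 269, 263 and 249 CPM in T166A (log2 difference -0.05, 95% interval -0.37 to 0.27). Bmp2 lay between 2.31 and 6.71 CPM, with the batch B2 library the lowest in each genotype.

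Transcript length ran with the BMDM libraries. The Spearman correlation across genes between length and the centred log2 level was 0.07, -0.37 and -0.46 in WT replicates 1 to 3 and 0.42, 0.39 and -0.17 in T166A. With each library's length trend removed, Tgfbr2 stood at -0.03 and Tgfbr1 at 0.21 on the log2 scale.

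Inhba, Tgfb2 and Tgfb3 were near the detection limit in BMDM, and single libraries set their differences. Inhba had 446, 4 and 40 counts in WT and 0, 17 and 42 counts in T166A, so WT replicate 1 alone was high. Tgfb2 had 6, 0 and 11 counts in WT and 14, 2 and 84 in T166A. Tgfb3 had 44, 16 and 10 counts in WT and 29, 26 and 90 in T166A. T166A replicate 3 was the highest library for both Tgfb2 and Tgfb3. In that library the fibroblast markers summed to 430 CPM, against 4.43 to 50.3 CPM in the other 5, and in WT replicate 1 they summed to 50.3 CPM. The part of these markers in the differences was not tested.

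**Figure D4:**
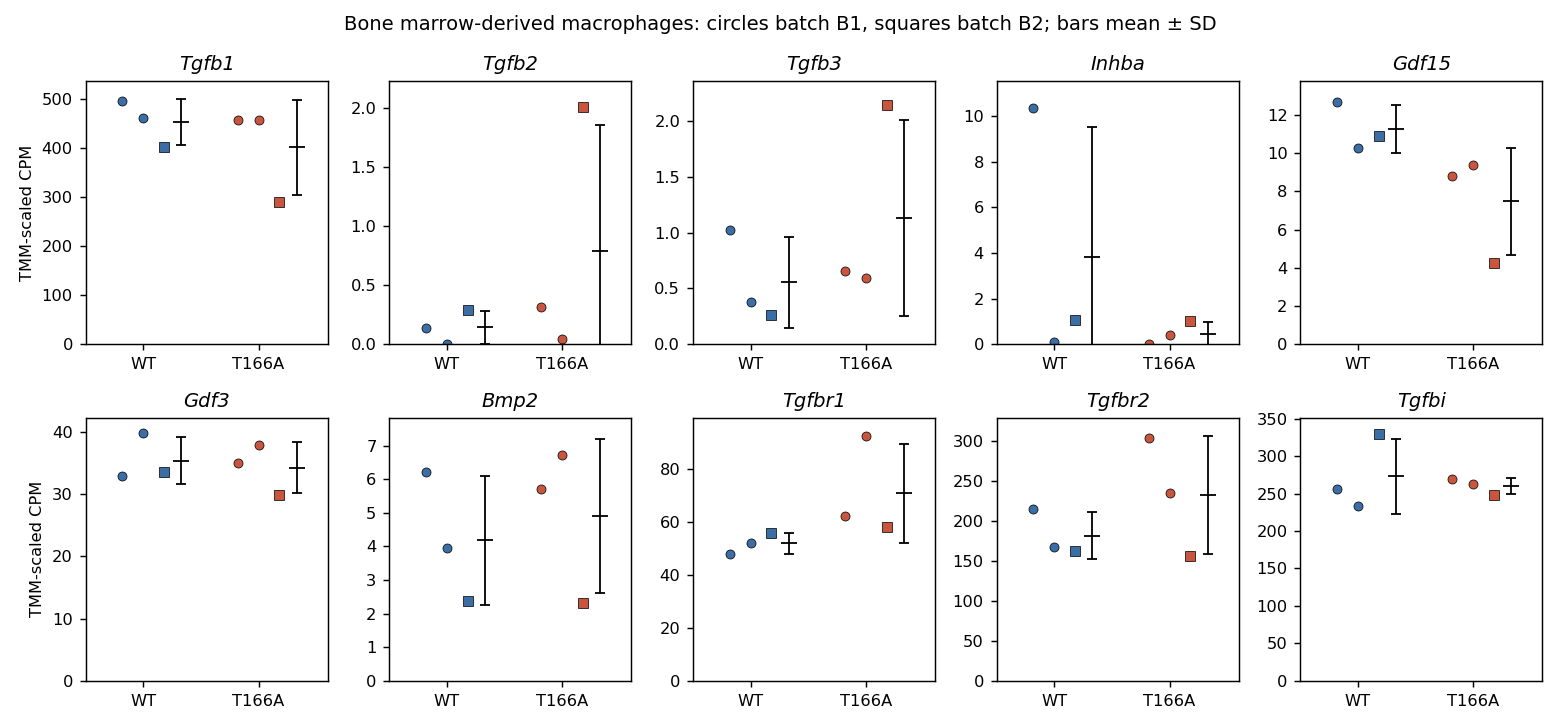
Level of each gene in the BMDM libraries, in TMM-scaled CPM with axes from 0; circles are batch B1, squares batch B2, and bars are mean ± SD (n = 3 per genotype). Gdf3 points of both genotypes lie between 29.8 and 39.8 CPM, and 1 WT library holds most of the Inhba counts.

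Whether the genotype difference was unlike in the 2 sources was tested in a fit over all 18 libraries. It was called for 3 of the 10 genes, all lower, beside 14.3% of all genes in either direction and 8.17% lower. The log2 difference in skin minus that in BMDM was -2.09 for Tgfb2 (SE 0.53, edgeR adjusted p = 0.0127), -0.47 for Tgfbr2 (SE 0.15, edgeR adjusted p = 0.0402) and -0.46 for Tgfbr1 (SE 0.15, edgeR adjusted p = 0.0442). The Tgfb2 call was lost without BMDM T166A replicate 3 (-1.03, edgeR adjusted p = 0.418) and without BMDM WT replicate 3 (-1.03, edgeR adjusted p = 0.420). Either choice leaves batch B2 with 1 library, which the batch term then fits. With 1 of the 18 libraries left out, the Tgfbr2 call was lost in 10 fits (edgeR adjusted p up to 0.157) and the Tgfbr1 call in 11 (up to 0.202). Taking the difference of the separate fits, each with its own spread, left 0 of the 10 genes called (adjusted p from 0.159 for Tgfbr2 to 0.488 for Tgfb2 among these 3). For Gdf15 the difference was -0.16 (95% interval -0.65 to 0.34, edgeR adjusted p = 0.720), so a difference between sources was not detectable, although Gdf15 was called in skin and not in BMDM. For Tgfb1 it was -0.15 (95% interval -0.39 to 0.09) and for Gdf3 0.11 (95% interval -0.41 to 0.62).

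The rest of the pathway was described in skin by lists of related genes, beside 12.7% higher and 13.2% lower among all genes tested. In skin 20 of the 104 genes tested rose and 20 fell, with genes in more than 1 list counted once. In BMDM edgeR called 0 of 79 at adjusted p under 0.05 (11 at an unadjusted p under 0.05, beside 12.8% of all genes there). DESeq2 called 7, beside 3.04% of all genes, and limma-voom 3, beside 1.35%.

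Other ligand genes of the superfamily were mostly scarce, and 12 of 26 passed the filter, 1 higher and 2 lower. Bmp6 rose from 9.90 ± 1.40 to 15.5 ± 1.98 CPM, and Bmp7 (log2 difference -1.50) and Gdf10 (-1.09) fell from WT levels of 2.58 and 3.24 CPM. Of 11 other receptor genes tested 6 rose and 0 fell. They include Bmpr2 (0.34), Bmpr1a (0.33), both BMP receptor genes, and Tgfbr3 (0.30), which encodes betaglycan, a co-receptor that presents TGF-beta2. With the endothelial score as a covariate, Tgfbr3 stood at 0.03 (edgeR adjusted p = 0.877), Bmpr2 at 0.16 (edgeR adjusted p = 0.367) and Bmpr1a at 0.30 (edgeR adjusted p = 0.244).

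Among 7 SMAD genes tested 2 rose and 2 fell. Smad3, which carries TGF-beta and activin signals, rose from 69.5 ± 5.20 to 88.9 ± 6.97 CPM (log2 difference 0.35) and Smad5, of the BMP branch, by as much (0.35). Smad7, an inhibitory SMAD gene that TGF-beta itself induces, fell from 83.8 ± 7.35 to 66.6 ± 4.77 CPM (-0.33). Of 16 regulators of SMADs 4 fell and 0 rose, with Ubash3b (-0.45), Tgif1 (-0.25) and Ski (-0.25), the last 2 SMAD co-repressor genes, the clearest by adjusted p. The list median was -0.08.

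Latency and activation genes went both ways, 4 higher and 2 lower of 21. Nrros, which tethers latent TGF-beta1 on myeloid cells, fell from 135 ± 8.21 to 88.9 ± 5.25 CPM (log2 difference -0.60, SE 0.05, edgeR adjusted p = 3.23e-08). Every T166A library was below WT, as for 6.63% of all genes tested. Itgb3, an integrin subunit gene that is also in the platelet list, rose (0.57), as did Emilin1 (0.39), a matrix protein gene. Of 17 secreted antagonists 1 rose, Htra1 (0.37), and 3 fell, among them Sostdc1 (-1.59, at 3.63 CPM in WT) and Vasn (-0.27).

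SMAD target genes showed no common direction, with 6 higher and 9 lower of 25 and a median of -0.10. This list shares Smad6, Smad7, Skil, Pmepa1 and Tgif1 with the lists of SMADs and their regulators. Smad7 and Tgif1, given above as lower, are counted again here. Id2 (-0.66) and Hpgd (-1.17) fell. For both the genotypes did not overlap. Of all genes tested in skin, 6.63% had every T166A library below WT. Counted in either direction, 10 of the 25 SMAD target genes did not overlap, and the share of all genes in either direction is not given. Id2 and Hpgd were named for their small adjusted p in this same comparison.

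Most of these list genes lost their call with at least 1 marker score as a covariate, and Nrros, Id2 and Emilin1 did not with any of those run. Over all genes, calls fell from 4011 to 844 with the macrophage score and to 684 with the adipocyte score. With the macrophage score, Smad3 stood at 0.19 (edgeR adjusted p = 0.354), Smad5 at 0.02 (edgeR adjusted p = 0.942) and Smad7 at -0.30 (edgeR adjusted p = 0.145). Ubash3b stood at -0.19 (edgeR adjusted p = 0.397), Tgif1 at -0.17 (edgeR adjusted p = 0.288), Itgb3 at 0.17 (edgeR adjusted p = 0.288) and Bmp6 at 0.37 (edgeR adjusted p = 0.295). With the adipocyte score, Vasn stood at -0.10 (edgeR adjusted p = 0.798), and Bmp7, Gdf10, Ski, Htra1, Sostdc1 and Hpgd also lost their calls (edgeR adjusted p from 0.0724 for Htra1 to 0.198 for Bmp7).

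**Figure D5:**
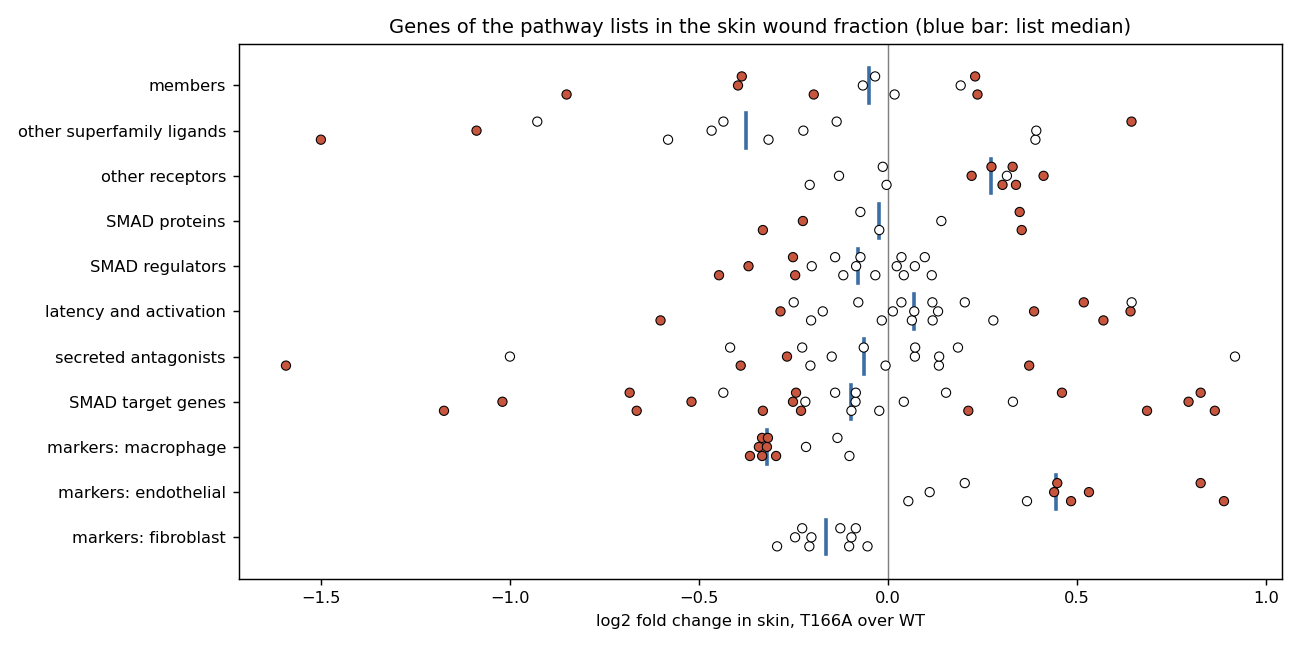
Log2 fold change of T166A over WT in skin for each tested gene of the 10 genes (members), 7 pathway lists and 3 marker lists; points are genes, filled where the edgeR adjusted p is under 0.05, and blue bars are list medians. Of the other receptor genes 6 of 11 are filled on the right, and 7 of 10 macrophage markers are filled on the left.

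The genes most like each of the 10 across all 18 libraries were found by the mean absolute difference of centred log2 CPM, among 8355 genes with at least 5 CPM in both sources. For Gdf3 these were Ccl6 (0.13), a chemokine gene of myeloid cells, Lmf1 (0.15), Eipr1 (0.16), Dbnl (0.16) and Vps72 (0.17). Ccl6 stood at 956 and 534 CPM in WT BMDM and WT skin. The closest gene to Tgfb1 was Plin2 (0.08), a lipid droplet coat gene. Gdf15 was closest to Sh2b2 (0.20), Tgfbr1 to Larp4b (0.07), Tgfbr2 to Git2 (0.09), Tgfbi to Rnf4 (0.10), Bmp2 to Piezo1 (0.19) and Tgfb3 to Ptgfrn (0.19). Inhba (nearest Cxcl1, 0.41) and Tgfb2 (nearest Cav1, 0.49) had no close match among these candidates. Both lay below 5 CPM in BMDM, at means of 4.01 and 0.148 CPM in WT, so genes as low there were not searched. The search therefore cannot show whether they have a close match. Tgfb3 and Bmp2 also lay below 5 CPM in BMDM. The 18 points share the 2 sources and both genotypes, so the group differences of these genes are part of the likeness that chose them.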

How the data were processed

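Per the submitters' processing notes, the authors used FastQC 0.12.1, cutadapt 4.4, HISAT2 2.2.1 and featureCounts on mm10. The authors deposited 2 tables of raw counts, 1 per source, with RefSeq transcripts as rows. No strand setting or rule for multi-mapped reads is given in the sources used here. The labels' extraction text speaks of adipocytes while the sample labels name macrophages.

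Transcripts (45895 in BMDM, 45843 in skin) were matched to genes through RefSeq, or GENCODE for 29 in each table. The 117 left unmatched in each table held 0.514% and 0.187% of counts. Each gene was represented by the transcript with the highest summed CPM, since reads in shared exons recur in each isoform (summing raised totals 2.04-fold in both tables). Depth was 40072513 to 44152639 gene counts per BMDM library and 29357354 to 38774475 in skin.

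Tests used edgeR 4.0.16 in R 4.3.3 (TMM, filterByExpr with a minimum count of 10 and total of 15, robust quasi-likelihood F test), with Benjamini-Hochberg adjustment over all genes and a threshold of 0.05. BMDM was fitted with batch and genotype, skin with genotype, and source and interaction over all 18 libraries with 16586 genes. Standard errors came from the log2 difference and F. CPM are TMM-scaled. Alternatives used DESeq2 1.42.0 and limma 3.58.1. Scripts were tested on simulated data. In BMDM the same-numbered library of the other genotype was the best match for each replicate (correlations of deviations 0.20, 0.11 and 0.19). The deviations were taken within genotype without removing the batch, and no label names pairs, so pairing was not settled.

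The genes and lists were chosen with earlier results of these data known. Named genes are the 10, in each pathway list the 3 genes of smallest adjusted p in skin, the genes nearest each of the 10 by the likeness measure (5 for Gdf3, otherwise 1), and marker lists by their sums. One gene that this rule names is not reported here. Promoter sequences are from RefSeq.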

Additional observations from a re-analysis of the deposited data

Results flagged for a closer look

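In 82 groups of libraries checked, 4 held a library far from the others, and chance alone marks about 1 group in 20. Inhba stood at 605 CPM in skin WT replicate 2, with the next WT library at 536. Itgb3 stood at 225 CPM in the same library, with the next at 184. Bmp6 stood at 19.5 CPM in skin T166A replicate 5 (next 15.2), and Tgif1 at 270 CPM in skin T166A replicate 3 (next 246). Skin WT replicate 2 also had the lowest summed macrophage markers of the WT libraries, at 14663 CPM.

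The genotype difference was unlike in skin and BMDM by the interaction test of edgeR for Tgfb2 (-2.09 on the log2 scale, adjusted p = 0.0127), Tgfbr2 (-0.47, adjusted p = 0.0402) and Tgfbr1 (-0.46, adjusted p = 0.0442). None of the 3 was called when each source kept its own spread. The Tgfb2 value rests on 84 counts in 1 BMDM library, and with the length trend of each BMDM library removed the BMDM difference was 0.21 for Tgfbr1 and -0.034 for Tgfbr2.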

How the results depend on the processing

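Of the 6 calls in skin, Tgfb1, Gdf15, Bmp2 and Inhba held in each of the 12 fits with a library left out and with RLE size factors, both filters, DESeq2, limma-voom, summed transcripts and the length trend removed. They did not all hold under marker scores: 2 of the 10 genes were called with the macrophage score, and 844 of all 15473 genes in place of 4011. With a library left out, 4 to 7 of the 10 genes and 3473 to 4179 of all genes were called in skin, 0 of the 10 and 0 to 18 genes in BMDM, 1 to 4 and 1801 to 3410 for the interaction, and 8 and 13074 to 13818 between sources. Skin replicate numbers showed no pairing (correlations from -0.05 to 0.09, best match for 1 of 6). A replicate block there called 7 of the 10 genes, Tgfbi added (adjusted p = 0.0151), and 4549 genes. In BMDM the replicate block changed no call of the 10.

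Over all genes, skin calls numbered 684, 844 and 1702 with the adipocyte, macrophage and endothelial scores. BMDM calls numbered 105 without a filter, 16 with the stricter filter, 400 with DESeq2, 177 with limma-voom, 0 with summed transcripts or no batch term, 21 in batch B1 alone, 18 with the length trend removed and 22 with the replicate block added. Of the 10 genes, the interaction was called for 1 with no filter, limma-voom or summed transcripts, 5 with DESeq2 and 0 from the separate fits, and over all genes for 1186 with limma-voom and 312 from the separate fits. The cause of these shifts was not tested.

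Reversed signs were found mainly for differences near 0. In BMDM, batch B1 alone gave Tgfb3 -0.17, Gdf3 0.0066 and Tgfbi 0.12. Gdf3 stood at 0.049 with limma-voom, and at 0.036 and 0.039 with the length trend removed, without and with the replicate block, where Tgfbr2 stood at -0.034 and -0.038. In skin, Gdf3 stood at -0.44 with the adipocyte and -0.16 with the neutrophil score, Tgfb3 at 0.17 with the adipocyte and 0.014 with the endothelial score, and Tgfbr1 at 0.012 with the macrophage and 0.028 with the endothelial score. Between sources, Tgfb1 stood at 0.20 with RLE and DESeq2, 0.050 with the stricter filter, 0.0044 with limma-voom and 0.0048 with summed transcripts, and Tgfbr2 at -0.35 between T166A libraries. With a library left out, signs turned in BMDM for Tgfb3 (-0.17 to 1.65), Gdf3 (-0.14 to 0.0081), Inhba (-4.73 to 0.48), Tgfbi (-0.15 to 0.12) and Bmp2 (-0.027 to 0.36), in skin for Gdf3 (-0.059 to 0.13) and Tgfb3 (-0.085 to 0.0099), in the interaction for Tgfb3 (-1.84 to 0.21) and Gdf15 (-0.44 to 0.012), and between sources for Tgfb1 (-0.076 to 0.055) and Tgfbr2 (-0.056 to 0.20). Scores for platelets, neutrophils, macrophages and endothelium, and the length trend, were added after seeing the data. Fewer than 100 counts in each library but 1 limit Tgfb2, Tgfb3 and Inhba in BMDM.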
